A study of Mus musculus with 4 samples.

Results

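DNA methylation was examined at 6 genes that make the sugar donor for O-GlcNAc or attach it to proteins, namely Ogt, Gfpt1, Gfpt2, Gnpnat1, Pgm3 and Uap1, out of 21631 protein-coding genes on the autosomes and the X chromosome. They were chosen by their place in the pathway and not by any measured value, though earlier results of these data were known then. For each gene the CpGs from 3 kb before its start to 3 kb after its end were taken. Whole-genome bisulfite sequencing was available for 4 libraries of mouse embryonic stem cells of the genotype Ogt fl/fl as the labels give it, that is, with Ogt flanked by sites for a recombinase. The 2 libraries called iKO came from cells grown for 6 days with 4-hydroxytamoxifen, which switches on the inducible knockout, and sorted for a YFP reporter. The 2 control libraries came from Ogt fl/fl cells grown for 6 days without the drug. Drug exposure and reporter sorting therefore cannot be told apart from loss of Ogt. All cells had been grown on feeder fibroblasts, and per the labels' protocols these were removed by sorting. The protocol names CD90.2 as the marker of the stem cells and CD326 as that of the fibroblasts, which may be the reverse of the usual use of these antibodies; the share of fibroblasts left was not tested. Nothing in the labels says that the 2 libraries of a group came from separate cultures, so p-values measure only the spread between these libraries, which may be technical.

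The hexosamine pathway turns fructose 6-phosphate into UDP-GlcNAc, the donor of N-acetylglucosamine. Gfpt1 and Gfpt2 encode the glutamine-fructose-6-phosphate transaminases that open the pathway and set its rate, Gnpnat1 the acetyltransferase, Pgm3 the phosphoacetylglucosamine mutase and Uap1 the pyrophosphorylase that forms UDP-GlcNAc. OGT then attaches the sugar to serine and threonine of nuclear and cytosolic proteins, and OGA removes it. In embryonic stem cells OGT binds the TET enzymes, which oxidise 5-methylcytosine to 5-hydroxymethylcytosine. Bisulfite sequencing reads both forms as methylated, so each level below is their sum.

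The sequences of 4 promoters are printed because the promoter results turn on their CpGs. Each is the RefSeq sequence of GRCm38.p6, to which mm10 corresponds, from 250 bp before to 50 bp after the start, 5′ to 3′ on the gene's strand, with every CpG in capitals. Ogt is the targeted gene, Gfpt1 holds the run of methylated CpGs described below, Gfpt2 is its paralog, and Pgm3 had the lowest promoter levels of the 6.
Ogt, chrX:101639801-101640100, + strand: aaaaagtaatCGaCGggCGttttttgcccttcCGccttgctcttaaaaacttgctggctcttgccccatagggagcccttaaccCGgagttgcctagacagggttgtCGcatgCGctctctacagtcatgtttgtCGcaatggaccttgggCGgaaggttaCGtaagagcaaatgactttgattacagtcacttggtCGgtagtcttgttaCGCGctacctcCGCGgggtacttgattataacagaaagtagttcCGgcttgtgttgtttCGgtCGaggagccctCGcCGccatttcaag
Gfpt1, chr6:87042596-87042895, + strand: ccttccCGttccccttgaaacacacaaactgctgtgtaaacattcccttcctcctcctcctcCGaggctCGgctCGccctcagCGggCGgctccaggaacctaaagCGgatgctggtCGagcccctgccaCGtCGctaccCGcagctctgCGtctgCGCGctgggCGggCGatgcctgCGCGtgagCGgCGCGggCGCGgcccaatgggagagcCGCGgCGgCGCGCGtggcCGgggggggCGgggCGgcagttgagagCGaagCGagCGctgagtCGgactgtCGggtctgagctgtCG
Gfpt2, chr11:49793905-49794204, + strand: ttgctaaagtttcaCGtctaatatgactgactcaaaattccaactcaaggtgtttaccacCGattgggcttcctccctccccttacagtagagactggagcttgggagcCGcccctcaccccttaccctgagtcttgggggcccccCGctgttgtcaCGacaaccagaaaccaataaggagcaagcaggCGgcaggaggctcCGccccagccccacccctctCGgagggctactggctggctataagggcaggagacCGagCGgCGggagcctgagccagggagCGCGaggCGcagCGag
Pgm3, chr9:86571793-86572092, - strand: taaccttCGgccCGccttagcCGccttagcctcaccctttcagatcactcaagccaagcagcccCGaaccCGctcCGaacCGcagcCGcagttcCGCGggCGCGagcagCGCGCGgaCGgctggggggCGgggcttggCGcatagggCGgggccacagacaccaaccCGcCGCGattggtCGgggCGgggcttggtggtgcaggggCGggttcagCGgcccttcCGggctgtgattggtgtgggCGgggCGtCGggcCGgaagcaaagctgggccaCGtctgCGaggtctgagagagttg
These sequences hold 20 CpGs in Ogt, 38 in Gfpt1, 15 in Gfpt2 and 33 in Pgm3, against a median of 7 over all 32851 RefSeq promoter sequences. Uap1 holds 28. For Ogt, which has 2 entries, the upstream entry is shown and used as the start. All of these CpGs were listed in the methylation tables. The GC box GGGCGG, searched on both strands, occurred once or more in each of the 5 genes with a sequence and in 35.7% of all promoter sequences. The NRF1 core GCATGCGC occurred in Ogt alone of the 5 and in 2.71% of all promoters. The ETS motif CCGGAAG occurred in Pgm3 alone of the 5 and in 8.86% of all, TGACG in Uap1 alone of the 5 and in 20.8% of all, and the E-box CACGTG in none of the 5 and in 7.15% of all. These matches describe letters in the window and nothing about binding.

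The libraries held 64273609 to 79929994 reads over CpGs, a mean of 3.35 to 4.04 reads per listed CpG, and 79.0% of the 20677079 listed CpGs were read in every library. At Ogt 303 of 506 CpGs (59.9%) were read in every library, against 81.1% at Gfpt1, the best covered gene. The X chromosome, which carries Ogt, was read at 0.505 to 0.512 times the autosomal depth in all 4 libraries, and the Y chromosome at 0.290 to 0.307 times. The labels give the genotype as Ogt fl/fl; how many copies of Ogt each cell carried was not tested. Cells without the excised part of Ogt give no reads there, and the position of that part is not given in the sources used here. Promoters of the stem cell genes Pou5f1, Sox2, Klf4 and Tdgf1 were at 0% to 4.3% in all libraries, while that of Esrrb, another stem cell gene, stood at 46.7% to 70.9%. In all, 6 of 8 stem cell promoters and 4 of 8 fibroblast promoters were under 20% in every library. Both iKO libraries lay below both controls at 4 of the 8 stem cell promoters (median difference -5.39 points) and 5 of the 8 fibroblast promoters (-7.73), against a median of -2.17 points and a share of 34.1% over all promoters. Their bodies had median differences of -9.83 and -7.93 points over 7 genes each, against -8.58 over all. The part of other cells in the results was not tested. Expression was not measured.

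The promoters of all 6 genes were methylated at low levels in both groups, and none was called different. A promoter was the stretch from 1000 bp before to 500 bp after the start, and its level was the share of methylated reads pooled over the CpGs read in every library. At Ogt 1 of 98 and 0 of 91 reads were methylated in iKO replicates 1 and 2, and 2 of 103 and 0 of 79 in control replicates 1 and 2. The Ogt means were thus 0.51% ± 0.72 in iKO and 0.97% ± 1.37 in control (SD, n = 2 each), a difference of -0.46 points. Both groups reached 0 in a library, so the promoter of the targeted gene showed no separation. In the 300 bases printed for Ogt, 0 methylated reads were found in any library among 45 and 41 reads in iKO and 12 and 38 in control. Counts of 0 there allow levels up to 6.67%, 7.32%, 25% and 7.89%; these limits and all binomial intervals cover counting error only.

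Pgm3 had the lowest promoter levels of the 6. The gene Rwdd2a, at chr9:86571988-86574899, overlaps this promoter window and the sequence printed for Pgm3. The counts were 1 of 203 and 0 of 130 in iKO, and 1 of 272 and 0 of 186 in control. Gfpt2 had 4 of 83 and 0 of 63 methylated reads in iKO, and 3 of 78 and 3 of 98 in control. Uap1 differed between libraries of the same group, with 1.27% and 17.1% in iKO and 6.90% and 10.9% in control. These levels rest on 22 of 101 listed CpGs: over all listed CpGs the counts were 1 of 294 and 13 of 304 in iKO and 4 of 151 and 6 of 110 in control. At Gnpnat1 the levels were 4.88% and 7.94% in iKO and 21.8% and 7.69% in control, which overlap. They rest on 31 of 76 listed CpGs, and over all listed CpGs the counts were 5 of 154 and 5 of 77 in iKO and 14 of 169 and 8 of 193 in control. RefSeq gave no promoter sequence for Gnpnat1, so its CpG-denser gene end was taken as the start. Over the 6 promoters, 0 were called at an adjusted p under 0.05 with at least 10 points of change, as for 0% of all 19876 promoters. In 3 of 6 the iKO mean was lower, and in 0 of 6 did both iKO libraries lie below both controls, a pattern seen in 34.1% of all promoters. In 0 of 6 did both lie above, against 6.59% of all. At Ogt and Pgm3 control replicate 2 was at 0%, so no iKO library could lie below it. Over all promoters the library medians were 11.3% to 14.6%, above every level at Ogt, Gfpt1, Gfpt2 and Pgm3. The shares and the median below therefore do not show that the members were spared. The median difference was -0.20 points, against -2.17 over all promoters. Without iKO replicate 1 it was -1.05 with 5 of 6 lower, and without iKO replicate 2 it was 0.18 with 2 of 6 lower.

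The count of 0 called promoters has little weight, because the smallest adjusted p over all promoters was 0.627 and the test also made no calls in promoters with known changes in its check. At an unadjusted p under 0.05 there were 0 of the 6 and 7.1% of all promoters. A version of the test that took the spread from promoters at 10 to 90% methylation was added after this was seen. It called 0 of the 6 and 4 of 19876 in all (0.0201%), and made 6 false calls at promoters on simulated data. At these low levels a decrease of 10 points could not have occurred at Ogt, Gfpt1, Gfpt2 or Pgm3. Every control library there was under 4%. Nor could it have occurred at Uap1, where the control mean was 8.90%.

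**Figure D1:**
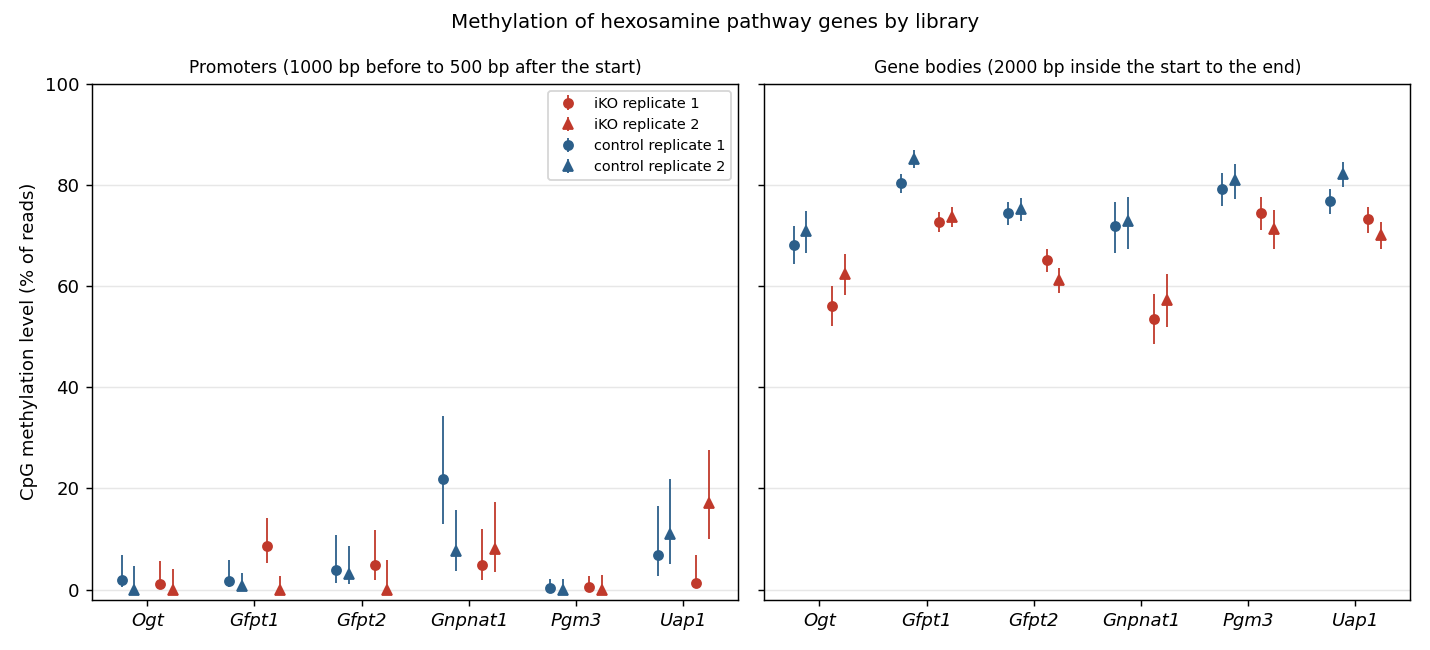
Methylation of the promoter (left) and gene body (right) of each gene in each library, as percent of reads, with 95% Wilson intervals that cover counting error only. Promoter levels of the groups overlap at all 6 genes, while at every gene both iKO bodies lie below both control bodies.

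At Gfpt1 a single library was high. The counts were 14 of 161 methylated reads in iKO replicate 1, 0 of 136 in iKO replicate 2, 2 of 121 in control replicate 1 and 1 of 165 in control replicate 2. iKO replicate 1 alone was high, and iKO replicate 2 was the lowest of the 4. Over all listed CpGs, 20 of 27 CpGs between chr6:87042736-87042880, a span of 145 bp that covers the start, had a methylated read in iKO replicate 1. Each of the 20 had exactly 1 such read, of 30 reads in all. The same CpGs had 0 of 48 methylated reads in iKO replicate 2, 1 of 20 in control replicate 1 and 0 of 50 in control replicate 2. The stretch lies in the Gfpt1 sequence printed above. It was picked out after its values were seen, and how many DNA fragments gave these reads was not tested. Without iKO replicate 1 the Gfpt1 promoter difference changed sign, from 3.22 to -1.13 points.

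Around each start the methylation level was near 0. It rose again on both sides at 5 genes, while at Ogt it rose inside the gene and stayed low upstream in most steps. The low stretch was measured in 250 bp steps, with both libraries of a group pooled. It ran from the start to the nearest step on each side with at least 50% of reads methylated and at least 10 reads. Steps with fewer reads were passed over, so a stretch can run through unread or methylated steps. This definition was chosen after the values were seen and has no test, and widths at other genes were not measured. Where levels are lower a fixed 50% limit can be reached further out, and 80.5% of all bins had a lower iKO mean. Whether a wider stretch in iKO goes beyond this was not tested. At Ogt the low stretch was by this measure the widest of the 6 in both groups. It ran from 1500 bp before to 4000 bp after the start in control. In iKO it ran to 4750 bp after the start, and its upstream edge was not reached within 3000 bp. In neither group did a step from 2500 to 3750 bp after the start have at least 10 reads. The step at 3000 bp had 80% of 5 reads methylated in control replicate 1, so control was shown low only up to that gap. At 4000 bp iKO was at 0% in both libraries (5 and 8 reads), and control at 87.5% and 100% (8 reads each). The upstream edge in control rests on 1 step of 2 CpGs with 7 and 6 reads (85.7% and 33.3%), beyond which control was at 0% to 9.1% again, so the contrast between the groups upstream rests on that step. At Gfpt2 the low stretch went from 3250 bp wide in control to 4250 bp in iKO, and at Gnpnat1 from 3500 to 4250 bp. The Gfpt2 stretch in iKO passed over the steps at -2000 and -1750 bp. There iKO replicate 1 was at 83.3% and 85.7% (6 and 7 reads), so the iKO edge before the start rests on steps with few reads. At Gnpnat1 the step at 2250 bp after the start was passed over in both groups. It had 100% of 6 reads methylated in control replicate 1 and 80% of 5 in iKO replicate 2. The Gnpnat1 steps at which iKO missed the limit were near it. iKO replicates 1 and 2 were at 40% and 50% at -1000 bp (5 and 8 reads). They were at 55.6% and 42.1% at 2750 bp (9 and 19 reads). At Gfpt1 (2000 bp), Pgm3 (2750 bp) and Uap1 (2250 bp) the width was equal in both groups. The stretch at Gnpnat1 was asymmetric, with 750 bp before and 2750 bp after the start in control.

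**Figure D2:**
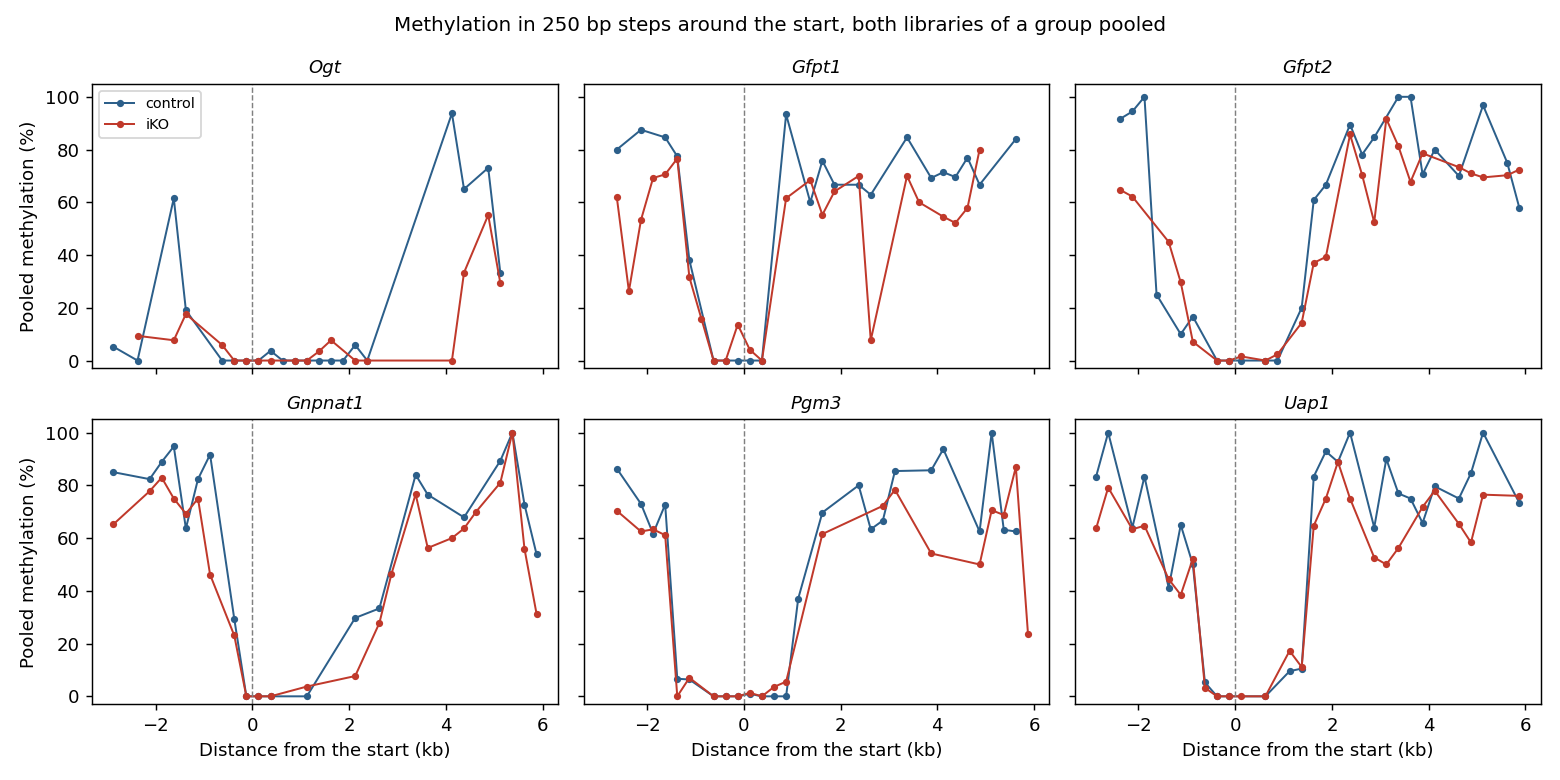
Methylation in 250 bp steps from 3 kb before to 6 kb after the start, as percent of reads pooled over both libraries of a group; steps under 10 reads are left out, and lines join the remaining steps. All 6 genes dip to near 0 at the start. At Ogt the low stretch as defined in the text ends 4000 bp into the gene in control and 4750 bp in iKO. No Ogt step from 2500 to 3750 bp had 10 reads in either group, so the control edge within that gap is not known.

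The gene bodies were lower in both iKO libraries than in both controls at all 6 genes, and 2 of them, Gfpt2 and Gnpnat1, fell by the call rule. A body ran from 2000 bp inside the start to the end of the gene. The 2 calls among 6 compare with 19.2% of all 17834 bodies, all of them lower. An adjusted p under 0.05 alone was reached by 4 of 6 members and by 47.7% of all bodies. Of all bodies 97.3% had a lower iKO mean and 85.6% had both iKO libraries below both controls, so the 6 of 6 here is near the background; in 0 of 6, against 0.561% of all, were both above. An unadjusted p under 0.05 was reached by 5 of 6 and by 58.2% of all bodies. The median difference of the 6 was -9.91 points, against -8.58 over all bodies. Without control replicate 1 the number called was 5 of 6, against 39.8% of all bodies; without iKO replicate 1 it was 1, Gfpt2 (20.6% of all). Without iKO replicate 2 it was also 1, but this was Gfpt1, so that neither Gfpt2 nor Gnpnat1 was called (6.39% of all).

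Ogt itself had body levels of 56.1% and 62.4% in iKO and 68.2% and 70.8% in control, from 463 to 617 reads over 212 CpGs. The groups did not overlap, and the difference was -10.28 points (59.2% ± 4.48 against 69.5% ± 1.87, SD, n = 2 each). Its adjusted p of 0.0547 missed the threshold, although edgeR gave 0.0196 and the set of all listed CpGs 0.0212. Over all alternatives it ranged from 0.0196 to 0.370. Bodies on the X chromosome had a median difference of -8.17 points over 632 genes.

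Gfpt2, the second transaminase gene, had body levels of 65.2% and 61.2% in iKO and 74.4% and 75.2% in control. It fell by 11.62 points (63.2% ± 2.81 against 74.8% ± 0.62, SD, n = 2 each; adjusted p = 0.00769), with 18.5% of all bodies falling at least as far. The lncRNA gene Gm36507 spans the whole of Gfpt2, so its CpGs are the same. Without iKO replicate 2 the Gfpt2 difference was -9.64 points and the call ended, as it did with at least 5 reads per CpG (-4.70 points, adjusted p = 0.562). Gfpt1 was at 72.7% and 73.6% in iKO and 80.3% and 85.1% in control. Its difference of -9.55 points had an adjusted p of 0.0107 but missed the 10-point minimum. It was called with unweighted means (-10.60 points), without iKO replicate 2 (-10.04) and without control replicate 1 (-11.96). Unweighted means replaced only the difference, while the p-value stayed that of the pooled reads. With at least 5 reads per CpG the Gfpt1 difference was -5.13 points (adjusted p = 0.457). At both transaminase genes the groups did not overlap.

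Gnpnat1 had the largest difference of the 6. Its body stood at 53.5% and 57.2% in iKO and at 71.8% and 72.8% in control, from 283 to 383 reads over 71 CpGs, the smallest body of the 6. It fell by 16.96 points (55.4% ± 2.59 against 72.3% ± 0.67, SD, n = 2 each; adjusted p = 0.0192), and 3.14% of all bodies fell at least as far. The call ended without iKO replicate 1 (adjusted p = 0.129) and without iKO replicate 2 (adjusted p = 0.0734). The end of Gnpnat1 overlaps that of Styx, a protein-coding gene.

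Pgm3 and Uap1, the mutase and the pyrophosphorylase, had the smallest differences with all libraries, but without iKO replicate 1 that of Ogt was the smallest, at -7.11 points. Pgm3 was at 74.4% and 71.3% in iKO and 79.2% and 80.9% in control, a difference of -7.17 points with an adjusted p of 0.0948. With unweighted means it was -4.30 points. Uap1 was at 73.2% and 70.1% in iKO and 76.8% and 82.2% in control, a difference of -7.88 points with an adjusted p of 0.0477. Its difference was -5.18 points without control replicate 2 (adjusted p = 0.194), -6.35 without iKO replicate 2 (adjusted p = 0.251) and -9.41 without iKO replicate 1 (adjusted p = 0.0690), and -10.59 without control replicate 1 (adjusted p = 0.00745). The groups did not overlap at either gene. The end of Pgm3 overlaps that of Dop1a.

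In control cells the body levels were ordered Gfpt1, Pgm3, Uap1, Gfpt2, Gnpnat1 and Ogt from high to low. The libraries of neighbours in that order overlapped for Gfpt1 with Pgm3 and for Pgm3 with Uap1, and were apart for the rest. In iKO the last places were exchanged, with Gnpnat1 at 55.4% below Ogt at 59.2%, but their libraries overlapped. There Uap1 and Gfpt2 were the only neighbours with libraries apart.

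Since 97.3% of bodies were lower in iKO, each body was also set against the median body of its own library. Those medians were 68.2% and 65.9% in iKO and 74.2% and 78.1% in control. Relative to them Gnpnat1 stood at -14.7 and -8.75 points in iKO and -2.35 and -5.29 in control, a difference of -7.89. Gfpt2 differed by -2.54 points, with both iKO libraries below both controls, as at 16.9% of all genes. Ogt (-1.20) and Gfpt1 (-0.47) overlapped between groups. Pgm3 (1.91) and Uap1 (1.19) were higher relative to the median gene in both iKO libraries, as at 26.3% of all genes. At Uap1 the groups barely parted, with 4.95 and 4.16 in iKO and 2.60 and 4.13 in control. Single libraries moved most of these values: Ogt was at 3.10 without iKO replicate 1 and -5.50 without iKO replicate 2, Gfpt1 at 1.15 and -2.09, and Gnpnat1 at -4.93 and -10.85. Without control replicate 1 Gfpt2 was at -1.04 and Uap1 at 0.43, and without control replicate 2 Pgm3 was at 0.82. With unweighted means Pgm3 was at 4.95, Gfpt1 at -1.35 and Gfpt2 at -1.35, and with all listed CpGs Ogt was at -3.06, Gfpt1 at 0.035 and Uap1 at 0.69. With 2 libraries a group the exact permutation test cannot give a p below 0.33, the value at each gene whose groups did not overlap. The count of genes below control rested on the libraries used: it was 2 with all and 4 without iKO replicate 2. Where a promoter was near 0 in both groups, the gap between body and promoter mostly repeats the body difference. At Ogt the gap differed by -9.82 points and the body by -10.28, so the gap is no separate result there. Within a library the gap was smaller in both iKO libraries at 5 of 6 genes and at 50.4% of all genes. It fell by 7.23 points at Pgm3 to 12.8 at Gfpt1, while Uap1 overlapped. These sizes cannot be ranked, since the difference at Gfpt1 was -7.93 points without iKO replicate 1, at Ogt -6.14 without iKO replicate 1, at Gnpnat1 -1.08 without control replicate 2 and -16.15 without control replicate 1, and at Uap1 -17.65 without iKO replicate 1 and 1.29 without iKO replicate 2. With unweighted means it was -4.30 at Pgm3 and -14.3 at Gnpnat1, and with all listed CpGs -15.5 at Gnpnat1.

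**Figure D3:**
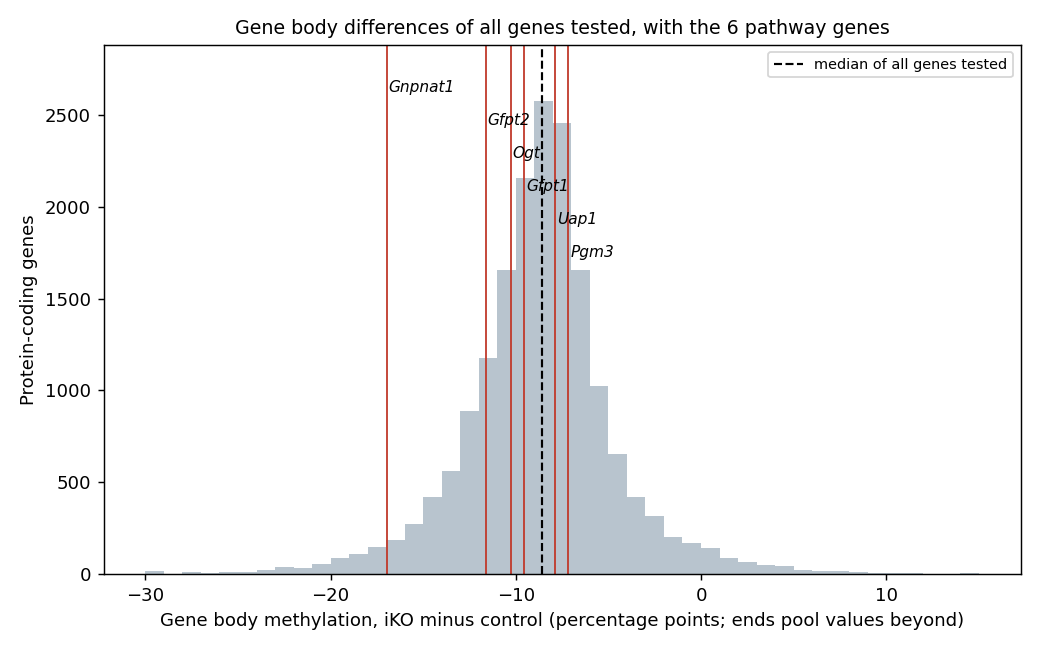
Distribution of the body difference, iKO minus control in percentage points, over 17834 protein-coding genes, with the 6 genes as red lines and the median of all genes (-8.58) dashed. Gnpnat1 (-16.96) lies in the lower tail and the other 5 lie between -11.62 and -7.17.

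Along the genes, 197 bins of 1 kb on a fixed grid could be tested. Of these 150 (76.1%) had a lower iKO mean, against 80.5% of all 769583 bins, and 88 (44.7%) had both iKO libraries below both controls, against 42.3%. Both lay above both controls in 9 bins, against 3.93% of all. The median difference was -8.96 points, against -8.05 over all bins. No bin was called, as for 0% of all bins, while 29 of 197 had an unadjusted p under 0.05, against 13.2% of all. The smallest adjusted p over all bins was 0.343, so this count says little about changes of the size seen here. The version with the spread taken from intermediate bins called 2 of 197 bins, 1 in Ogt and 1 in Gfpt1, and 1.03% of all bins. With 2 kb bins, 5 of 120 bins were called, against 1.77% of all. These were 2 at Gfpt1 and 1 each at Ogt, Gfpt2 and Gnpnat1, all lower in iKO. The one at Ogt, chrX:101686001-101688000, lies past the end of the gene at 101684351.

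In Ogt the bin with the largest decrease was chrX:101644001-101645000, centred 4.45 kb inside the start, where the low stretch ended by the step measure. Methylated reads made up 52.4% and 20% in iKO and 75.9% and 83.9% in control, from 21 to 31 reads over 13 CpGs. The difference was -43.7 points, and the gap between the iKO libraries was wider than that between the controls. It was -27.5 points without iKO replicate 2 and -59.9 without iKO replicate 1. Its adjusted p was 0.343 in the test used throughout and 0.0177 with the spread taken from intermediate bins, and ranged from 0.0177 to 0.745 over all alternatives. Of 51 bins over Ogt only 29 could be tested, and 8 had at least 5 CpGs and 20 reads in every library.

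The bins named here are those with at least 20 reads in every library. In Gnpnat1 the one with the largest decrease was chr14:45378001-45379000, far inside the gene, with 44.7% and 33.3% in iKO against 72.0% and 86.4% in control. In Gfpt2 it was chr11:49827001-49828000, with 66.1% and 48.0% against 87.2% and 81.8%. In Gfpt1 it was chr6:87087001-87088000, with 62.3% and 48.6% against 75% and 89.3%. At these 3 genes, as at Ogt, the groups did not overlap. The largest decreases in Uap1 (-22.7 points, chr1:170171001-170172000) and Pgm3 (-19.8 points, chr9:86565001-86566000) were smaller under this limit. Bins with fewer reads reached -32.6 points before the start of Gfpt2, -31.7 at Uap1, -30.5 before the start of Gfpt1 and -25.0 in Pgm3. At Ogt and Gnpnat1 none went past the bin named. These bins were selected for their size, so their separation is a description.

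With at least 20 reads in every library, the largest increases were smaller in size than these decreases. They came to 9.33 points in Gfpt1 (chr6:87077001-87078000), 8.61 in Gfpt2 just before its start (chr11:49793001-49794000) and 7.54 in Uap1 (chr1:170158001-170159000), each with both iKO libraries above both controls. Ogt (4.24 points) and Pgm3 (3.30 points) overlapped between groups, and no bin of Gnpnat1 with enough reads was higher in iKO. Among bins with fewer reads, Ogt reached 28.8 points with groups overlapping and 15.4 with groups apart, and Gfpt2 16.6 with groups apart. The 7 bins with at least 40 listed CpGs, which cover the starts, were at 0% to 2.94% in every library, except for 9.91% in iKO replicate 1 at the Gfpt1 start.

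**Figure D4:**
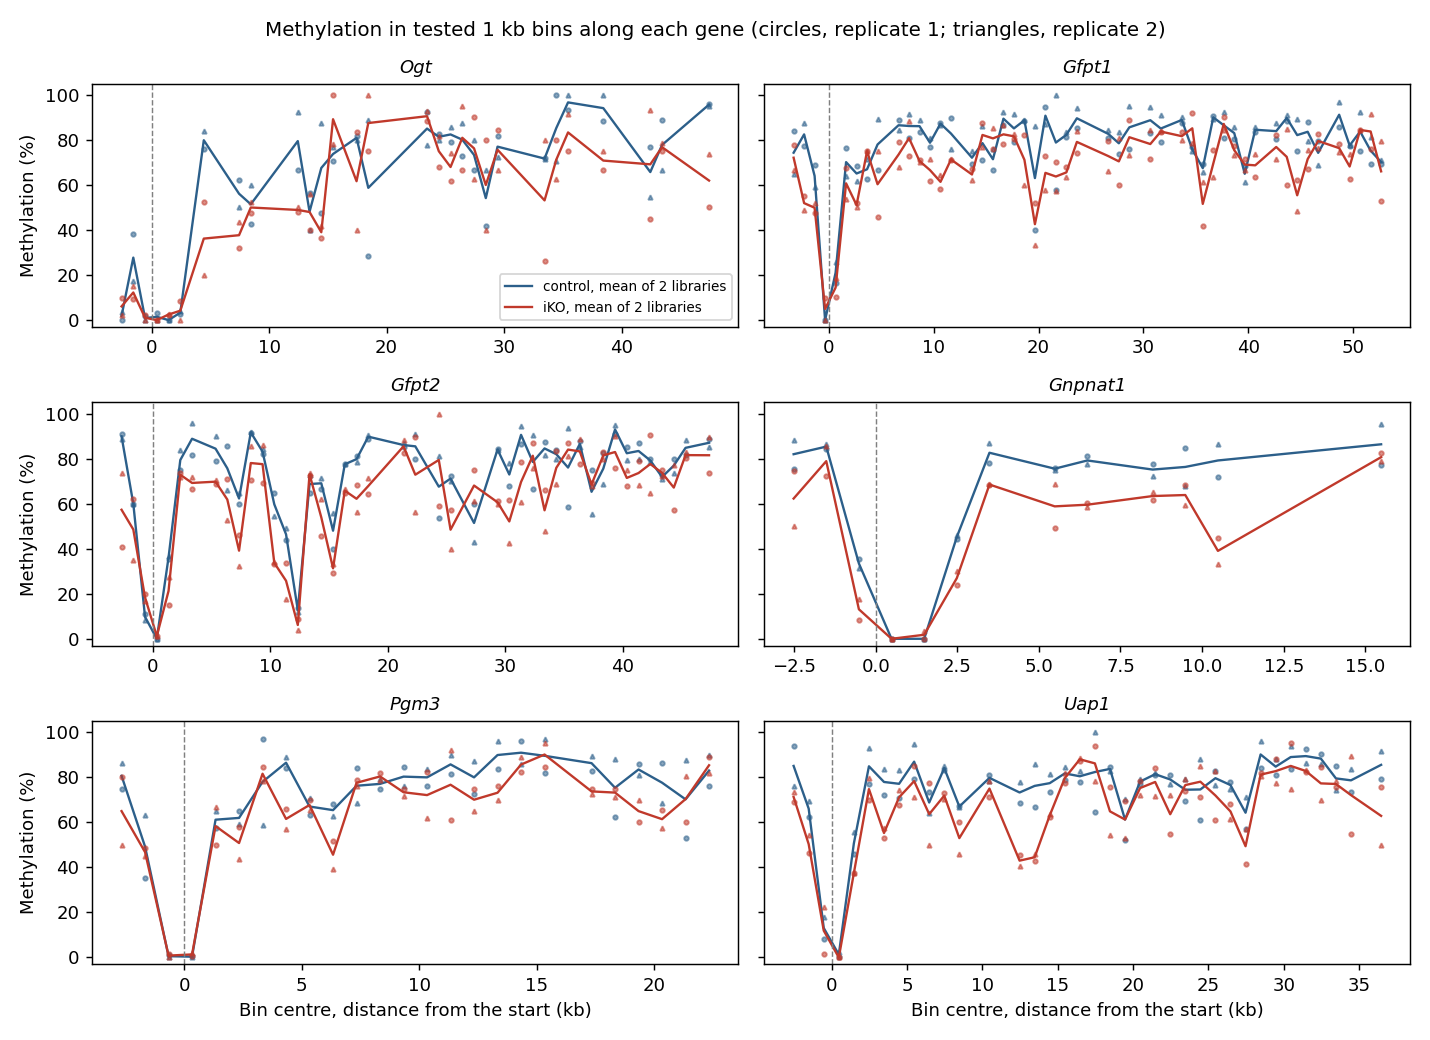
Methylation in each tested 1 kb bin (percent of reads) against the distance of the bin centre from the start, per library (points) and as the mean of 2 libraries (lines), which also join across bins that were not tested. The control line lies above the iKO line in most bins of each gene, 150 of all 197 tested bins.

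Of 15 further genes of O-GlcNAc removal and of sugar supply and turnover, all had bodies lower in both iKO libraries, against 85.6% of all bodies, with a median difference of -10.97 points against -8.58. The rule called 5 of the 15, against 19.2% of all bodies. Oga, which encodes the enzyme that removes O-GlcNAc, fell by 12.74 points, from 77.0% and 83.6% in control to 67.9% and 67.2% in iKO. Hk2, a hexokinase that feeds glucose into the cell's sugar phosphates, fell by 11.79 points, from 65.6% and 66.4% to 54.9% and 53.6%. Gnpda1, a glucosamine-6-phosphate deaminase that runs against the pathway, fell by 15.44 points. Gpi1, the glucose-6-phosphate isomerase, fell by 10.97 points. Eogt, the O-GlcNAc transferase of secreted proteins, fell by 10.01 points. Without iKO replicate 2 the calls of Gnpda1, Gpi1 and Eogt ended, and those of Oga and Eogt ended without control replicate 2. The calls of Gnpda1 (adjusted p = 0.0840) and Gpi1 (-9.73 points) also ended with the first 5000 bp of the gene left out. With unweighted means Gpi1 (-9.60 points) and Eogt (-7.74 points) missed the 10-point minimum. Eogt also lost its call with limma on logit levels (adjusted p = 0.0571), with all listed CpGs (-9.97 points) and with depth corrected for C/T variants (-9.92 points), and Oga with at least 5 reads per CpG (adjusted p = 0.116). Under that last setting the Hk2 difference turned to 0.75 points (adjusted p = 0.890). At the promoters 0 of 15 were called, as for 0% of all. Both iKO libraries were below both controls at 7 of 15 and above at 3 of 15, against 34.1% and 6.59% of all promoters. There the largest decrease was at Eogt (-13.6 points), whose window is the CpG-denser gene end with 13 CpGs and may not be the promoter, and the largest increase at Slc35a3, a UDP-GlcNAc transporter of the Golgi, with 12.8% and 15.2% in iKO against 5.23% and 2.75% in control. Both had an adjusted p of 0.627.

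By Euclidean distance over 8 values, the promoter and body levels in the 4 libraries, the genes most like Ogt among 6265 were Fhod1, Rad23b and Lnx2, whose bodies differed by -8.53, -11.40 and -10.21 points. The nearest gene was Fbxl7 for Gfpt1, Pkp4 for Gfpt2, B4galt6 for Gnpnat1, Hivep1 for Pgm3 and Ccz1 for Uap1. Likeness here is of methylation levels only. These genes were chosen by the same body levels, so differences near those of the members follow from the choice. The genes compared had at least 200 body CpGs, a limit that Gnpnat1 (71) and Pgm3 (159) themselves did not meet.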

How the data were processed

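Genomic DNA was spiked with unmethylated lambda DNA, sheared, ligated to methylated adaptors, bisulfite converted and amplified, per the labels' protocols; lambda levels were not analysed here. The submitters' processing notes name BSMAP, Picard and mm10, with no versions. The deposited columns are counts of methylated and of all C or T reads per CpG, strands merged, and an expected count that the authors corrected for C/T variants. File names were matched to samples by genotype and replicate number.

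Levels were pooled methylated reads over total reads at CpGs read at least once in every library. Promoters needed 5 CpGs, bodies 10 and bins 5. A quasi-binomial logistic model was fitted over all features, with dispersion moderated by limma 3.58.1 in R 4.3.3 and kept at 1 or more, an F test and Benjamini-Hochberg adjustment; a feature was called at adjusted p under 0.05 and at least 10 points. The replicate numbers were not used as a block, since the labels tie them to nothing. Same-numbered libraries showed no clear shared deviation, which does not exclude that they were paired. Starts and strands came from the RefSeq promoter table of GRCm38.p6 (17274 genes) or, for 4357 genes, from the CpG-denser gene end, which may not be the promoter.

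Checked on simulated data, the model recovered the size of known decreases of 25 and 50 points, set with all other features unchanged. Smaller decreases, like those of the members' bodies, and a fall at nearly all bodies were not simulated. At bodies the model called 57% of the decreases of 25 points and 89% of those of 50 points. It called none at promoters, and at bins only some of the larger ones, a size added after none of the smaller were called; 0 calls there are therefore no sign of stability. The version with the spread from features at 10 to 90% methylation was also added after that. In the same check it made 6 false calls at promoters and 19 at bins. A version with the replicate number as a block made 14 false calls at bins. The test written down first was kept as the one reported. The gene boundary as start was added after seeing the data, as were the low stretches, the motifs and the Gfpt1 stretch. The members and lists were chosen with earlier results of these data known. Named bins are, per gene, the largest decrease and increase among bins with at least 5 CpGs and 20 reads in every library, called bins and CpG-dense bins; other pathway genes are named where called, or else by the largest decrease and increase. Other alternatives were edgeR 4.0.16, limma on logit levels, other read minimums, windows and bin sizes, and each library left out; a library left alone in its group is then taken to vary as the other group does.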

Additional observations from a re-analysis of the deposited data

How the results depend on the processing

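All 6 gene bodies were lower in iKO under every alternative run, but the number called, 2, changed with the setting. It was 0 with at least 5 reads per CpG, where only Gfpt1 and Gfpt2 could be tested (15.7% of all bodies called), and 1 with the replicate number as a block, where Gnpnat1 lost its call (adjusted p = 0.070; 11.7% of all). It was 3 with all listed CpGs (19.5% of all) and with edgeR (28.0% of all), where Ogt was added. Unweighted means also gave 3 (19.3% of all), with Gfpt1 added, but there only the difference was replaced and not the p-value. Of the other pathway genes Gnpda1 lost its call with the block (adjusted p = 0.0573). Leaving out a library gave 1 to 5, with 5 without control replicate 1 and 1 without either iKO replicate. Over all genes the 3433 body calls became 2089 with the block, 1140 without iKO replicate 2, 1644 without control replicate 2 and 7105 without control replicate 1. The numbers did not pair the libraries: deviations of same-numbered libraries correlated at -0.048 over bodies, -0.037 over promoters and -0.008 over bins. Calls among member bins went from 0 to 2 with the block, to 2 with the spread from intermediate bins and to 5 with 2 kb bins; over all bins these settings gave 5409, 7940 and 9377 calls. Body levels below control after centring on the library median were found at 2 genes, at 1 with all listed CpGs and, leaving out a library, at 2 to 4. At a mean depth of 3.35 to 4.04 reads per CpG, no member promoter or 1 kb bin could be tested at 5 reads per CpG.

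Promoter differences changed sign at 5 genes, all without a call. With all listed CpGs Ogt was at 0.31 points and Uap1 at -1.74. Leaving out a library gave Ogt -1.43 to 0.51, Gfpt1 -1.13 to 7.57, Gfpt2 -3.45 to 1.37, Pgm3 -0.18 to 0.31 and Uap1 -7.64 to 8.24; the reversed values were 0.050 and 0.51 for Ogt, -1.13 for Gfpt1, 1.37 for Gfpt2, -0.18 and -0.12 for Pgm3, and -7.64 and -1.70 for Uap1. The window of 1000 bp on each side gave Gfpt1 -0.53 and Uap1 -0.037, that of 500 bp before to 250 bp after gave Gfpt2 0.79, and the unweighted mean gave Uap1 -1.26. The Hk2 body was at 0.75 points with at least 5 reads per CpG. The cause of these changes was not tested.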

Other observations

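The 2 kb upstream of the promoter was measured in windows defined after the data were seen, with no test and no share over all genes. Gfpt1 had 53.3% and 53.6% there in iKO and 75% and 69.6% in control, a difference of -18.9 points. Uap1 had 53.8% and 61.8% in iKO and 71.9% and 72.4% in control. Gfpt2 had 55.4% and 43.4% in iKO and 60% and 65.4% in control, and Gnpnat1 73.3% and 74.7% in iKO and 80.2% and 87.2% in control. Pgm3 overlapped between groups, at 46.6% and 43.4% in iKO and 38.5% and 61.7% in control. Ogt was far lower than the others, at 9.30% and 6.90% in iKO and 15.8% and 10.2% in control. Between 500 bp and 2000 bp after the start, Ogt had 1.47% and 1.96% in iKO and 0% in both controls, from 51 to 68 reads, which is 1 methylated read in each iKO library. In the same stretch Gfpt1, Gfpt2 and Uap1 were lower in iKO, by differences of -17.1, -13.4 and -11.97 points with groups apart. Pgm3 (-2.59) and Gnpnat1 (1.47) overlapped.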
